A study of Mus musculus with 6 samples.

Results

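The 48 genes described here are interferon-stimulated genes, and they are 48 of the 45777 genes in the tables. Their names come from a fixed list without a filter on their values, although earlier results of these data were known when it was made. They were read in CD4+ T cells of the spleen that were sorted by flow cytometry into cells with surface Lrig1 (CD4+Lrig1+) and cells without it (CD4+Lrig1-). Lrig1 is a transmembrane protein that restrains growth factor receptor signaling. The mice were untreated C57BL/6 females of 7 weeks, with no transgene or deletion named in the labels. Although 3 samples of either kind are labelled, the 2 tables used here each hold 1 library per group, and they are called set 1 and set 2. Estimated counts were summed over the transcripts of a gene, and levels are in CPM, a gene's counts relative to the TMM-scaled total of its library, unless FPKM (per kilobase of transcript as well) is named. Where values are paired with "and", the first is set 1 and the second is set 2. The study's methods describe its samples in general as biologically independent, but the labels do not tie these 4 libraries to mice or pools, so every p-value below measures only the spread between these libraries.

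Interferon-stimulated genes form the antiviral program that cells switch on when interferon binds its receptors. Type I interferons signal through Ifnar1 and Ifnar2 to a complex that holds Stat2 and Irf9 and binds the interferon-stimulated response element (ISRE) of genes such as Ifit1, Isg15 and Oas1a. Interferon gamma signals through Ifngr1 and Ifngr2 to the gamma-activated site (GAS). Guanylate-binding proteins (GBP) and immunity-related GTPases (IRG) respond strongly to interferon gamma and act on vacuoles that hold intracellular pathogens. T cells show a tonic level of this program without infection, and both interferon and T cell receptor signals adjust it.

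The 48 genes were grouped by role into 4 sensors, 3 interferon regulatory factors, 18 antiviral effectors, 7 genes of the ISG15, ubiquitin or ADP-ribose pathways, 6 other type I response genes, 6 GBP GTPases and 4 IRG GTPases. All but Irf1 and the 10 GTPases are called type I response genes here (37 genes). Many of these genes also respond to interferon gamma, and the names describe the lists, not the source of any signal.

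The control elements of some of these genes can be seen in their sequence. RefSeq promoter windows of GRCm38.p6, which run from 250 bases before to 50 bases after a transcription start, were found for 33 of the 48 genes. Stretches of 170 bases that end at the start site are given 5′ to 3′ for 6 genes that hold the core of the ISRE, taken here as GAAA, any 2 bases and GAAA on either strand, with each match in capitals (overlapping matches run together). Gbp3, Gbp5, Isg15 and Oas1a are shown because their RNA was higher in Lrig1+ libraries of both sets, Ifit1 and Igtp because they carry the same element and their RNA differed little or went the other way. Gbp3 lies at chr3:142559874-142560043 (plus strand), Gbp5 at chr3:142496764-142496933 (plus), Isg15 at chr4:156200819-156200988 (minus), Oas1a at chr5:120907526-120907695 (minus), Ifit1 at chr19:34640719-34640888 (plus) and Igtp at chr11:58199386-58199555 (plus).
Gbp3: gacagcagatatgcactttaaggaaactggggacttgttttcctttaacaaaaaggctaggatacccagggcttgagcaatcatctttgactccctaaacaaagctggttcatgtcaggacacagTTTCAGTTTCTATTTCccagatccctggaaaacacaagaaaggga
Gbp5: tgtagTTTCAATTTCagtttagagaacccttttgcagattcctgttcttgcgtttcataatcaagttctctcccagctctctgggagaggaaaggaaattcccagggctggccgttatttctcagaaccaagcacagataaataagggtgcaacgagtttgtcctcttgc
Isg15: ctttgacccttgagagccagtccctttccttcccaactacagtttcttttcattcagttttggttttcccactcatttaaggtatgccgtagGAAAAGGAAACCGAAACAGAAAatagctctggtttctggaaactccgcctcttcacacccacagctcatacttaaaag
Oas1a: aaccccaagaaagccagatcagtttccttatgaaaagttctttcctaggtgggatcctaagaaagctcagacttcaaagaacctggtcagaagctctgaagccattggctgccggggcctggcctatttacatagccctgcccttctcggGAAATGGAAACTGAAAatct
Ifit1: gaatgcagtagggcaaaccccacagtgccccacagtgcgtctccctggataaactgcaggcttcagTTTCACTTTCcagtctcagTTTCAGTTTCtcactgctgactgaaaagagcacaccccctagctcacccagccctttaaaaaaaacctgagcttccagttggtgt
Igtp: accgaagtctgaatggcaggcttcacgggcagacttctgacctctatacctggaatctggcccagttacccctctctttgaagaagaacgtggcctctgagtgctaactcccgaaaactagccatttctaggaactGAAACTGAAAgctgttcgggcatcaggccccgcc

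Isg15 held 3 overlapping matches that began 78, 72 and 66 bases before its start, Gbp3 held 2 at 45 and 39 bases, and Oas1a held 2 at 20 and 14 bases. Each distance is to the start site at which the printed stretch ends. For Gbp3 and Oas1a that site lies inside the gene as annotated over all its transcripts (from base 142560016 and up to base 120907544). In the whole window of 300 bases, 18 of the 33 genes held the ISRE core, against 3.99% of the 27025 genes in the RefSeq table, and 10 held the GAS core (TTC, any 3 bases and GAA), against 9.55%. Igtp, Gbp5, Gbp7, Oas1a, Bst2 and Eif2ak2 held both. A window was missing for 15 members, among them Oas2, Mx1, Ifi27l2a and Iigp1, so members with a window were 68.8% of the list, under the 80% needed, and any share over the list or between its classes is void. A match is a string of letters and says nothing of binding in these cells.

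The libraries held 44865070 to 59977951 estimated counts, and all 48 genes passed edgeR's filter on low counts, with 16123 genes tested. Lrig1 itself had 221 and 129 CPM in Lrig1+ and 75.4 and 36.7 CPM in Lrig1- libraries, which matches the sort. Of 11 genes of T cell identity, none differed by more than 0.41 in its log2 ratio in either set, and Cd4 lay between 924 and 1100 CPM in all 4 libraries. Lrig1+ libraries also held far more regulatory T cell (Treg) RNA, with Foxp3 at 589 and 615 CPM against 48.9 and 30.7 CPM and 10 of 10 Treg markers higher in both sets. The sets lay further apart than the groups did, with a correlation of log2 CPM across genes of 0.960 and 0.959 between the groups of a set and 0.908 between sets within either group.

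As a whole, the interferon-stimulated genes did not shift in one direction. Their median log2 fold change (Lrig1+ over Lrig1-) was -0.04, the same as the -0.04 over all genes tested. Of the 48, 20 had ratios above 0 in both sets, 22 had ratios below 0 in both, and 6 had one of each. These 20 and 22 are 41.7% and 45.8% of the members, against 35.9% and 41.3% of all genes tested. The spread of the members' log2 ratios (SD 0.60 and 0.67) was smaller than that of all genes tested (0.94 and 1.01). A log2 ratio above 1 in size in both sets was reached by 3 of the 48, Gbp3, Gbp5 and Oas2. Of the 16123 genes tested, 1674 reached it. The members' ratios went together across the 2 sets, with a Pearson correlation of 0.95 over the 48 genes and 0.74 over all genes tested. Some members differed, such as Samd9l (-0.09 and -1.02) and Ifit3b (0.10 and -0.61). The genes behind the 2 correlations, and behind the spreads above, were not matched for level. The correlation is given as a description, since genes of the same libraries are not independent and rely on the same 4 totals.

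EdgeR's quasi-likelihood test, which treats both sets as replicates of 1 group, called 0 of the 48 genes higher and 0 lower at an adjusted p under 0.05, where it called 0% of all genes in either direction. The members' adjusted p ran from 0.691 to 1.00. At an unadjusted p under 0.05 it had 3 members higher and 0 lower, against 4.03% and 1.33% of all genes. All 3 were GTPases (Gbp3, Gbp5 and Iigp1). DESeq2's Wald test called Gbp3 alone (adjusted p = 0.0128), where it called 1.61% of genes higher and 0.31% lower. EdgeR's exact test also called Gbp3 alone (adjusted p = 0.0319), with 1.11% of genes higher and 0.0868% lower. The smallest p that an exact permutation of 2 against 2 libraries allows is 0.333, so none was run for single genes.

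The comparison within a table was tested by adding the table of a library to the quasi-likelihood model as a term. It called 15 members higher and 7 lower, against 14.5% and 12.8% of all genes tested, so that 31.2% and 14.6% of the members were called. DESeq2's Wald test with the same term, on the same 4 libraries, called 14 and 9, against 11.5% and 12.2% of all genes tested. The term leaves 1 residual degree of freedom, and the model assumes that the table marks a shared run, which the labels do not state. The adjusted p-values given for single genes below are from edgeR's quasi-likelihood test with this term, and "called" refers to it. A number without a unit that stands before such a p is the log2 fold change (Lrig1+ over Lrig1-) of this fit. In the plain quasi-likelihood test each of these genes missed 0.05. Without any model, both Lrig1+ libraries lay above both Lrig1- libraries for 7 members (14.3% of all genes) and below both for 6 (11.8%).

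**Figure D1:**
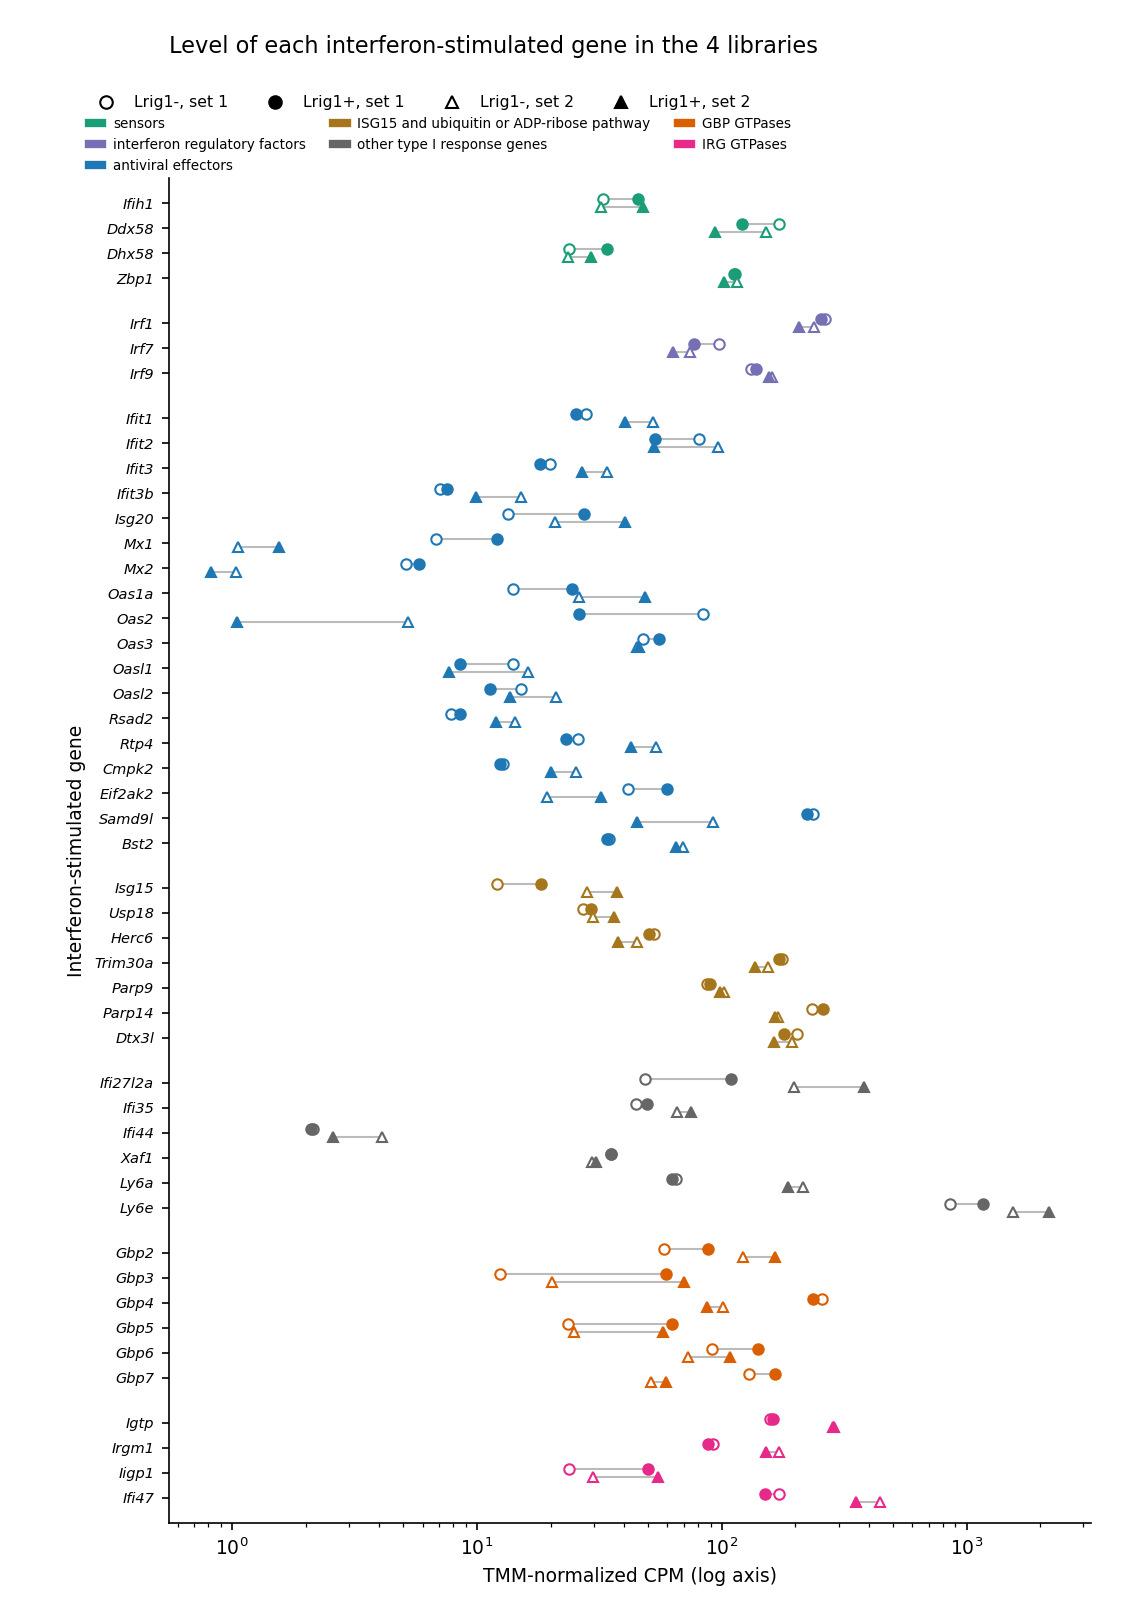
TMM-normalized CPM (log axis) of the 48 genes, grouped by role, with open symbols for Lrig1- and filled symbols for Lrig1+ libraries, circles for set 1 and triangles for set 2, and a line joining the 2 libraries of a set. The lines of Gbp3, Gbp5, Isg20 and Iigp1 run to the right in both sets and those of Ifit2, Oasl1 and Ddx58 to the left, whereas Oas2, Mx1, Mx2 and Samd9l sit further apart between sets than between groups.

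Among the GTPases 7 of 10 were higher in Lrig1+ cells in both sets and 3 were lower in both. Of all genes tested, 35.9% were higher in both sets and 41.3% lower in both. The median log2 fold change of the GTPases was 0.40, with medians of 0.48 and 0.31 within the sets. The 37 type I response genes had a median of -0.09 (0.00 and -0.17), with 13 higher in both sets (35.1%), 18 lower in both (48.6%) and 6 mixed. The fit with the table as a term called 6 GTPases higher and 1 lower, compared with 9 and 6 of the 37 type I response genes, where it called 14.5% and 12.8% of all genes. With single libraries left out, the median of the GTPases stayed above that of the type I response genes, although the latter ranged from -0.14 to 0.15. The difference between these classes was not tested, because their members share the same 4 libraries and were listed with earlier results known.

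The GBP genes gave 5 of these 6 higher calls. Gbp3, a GBP that restricts intracellular pathogens, had 59.0 and 70.2 CPM in Lrig1+ and 12.4 and 20.2 CPM in Lrig1- libraries. Lrig1+ libraries stood clear of Lrig1- libraries in both sets, at 4.74 and 3.48 times the level. Its log2 fold change was 2.01 (standard error 0.12, adjusted p = 7.95e-05). The gene is annotated at chr3:142560016-142573213 (GRCm38), and nearly all of its counts came from one transcript in every library (99.0% to 100% of them). Gbp5 (chr3:142496934-142522344), which promotes inflammasome assembly, had 62.4 and 57.4 CPM in Lrig1+ and 23.7 and 25.0 CPM in Lrig1- libraries. Both groups kept nearly the same level in either set and did not overlap (log2 fold change 1.30, standard error 0.09, adjusted p = 1.03e-04).

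Gbp6 had 141 and 108 CPM in Lrig1+ and 90.9 and 72.8 CPM in Lrig1- libraries, and the groups did not overlap (log2 fold change 0.60, adjusted p = 8.84e-04). It shares 70.7% of its 50-base pieces with other genes, so counts assigned to it and its near copies are uncertain. Gbp2 measured 87.8 and 165 CPM against 58.0 and 122 CPM, higher in Lrig1+ within each set but overlapping across sets (0.51, adjusted p = 0.00273). Gbp7 measured 165 and 59.2 CPM against 129 and 51.6 CPM, a smaller difference within sets than between them (0.28, adjusted p = 0.0298). Gbp4 was the exception among the GBP genes, with 236 and 86.8 CPM in Lrig1+ and 257 and 102 CPM in Lrig1- libraries, and it was not called (adjusted p = 0.117), although DESeq2's Wald test with the table as a term called it lower (adjusted p = 0.0454).

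The 4 IRG GTPases did not move together. Iigp1, whose product disrupts the vacuole of Toxoplasma, had 49.8 and 54.7 CPM in Lrig1+ and 23.8 and 29.7 CPM in Lrig1- libraries. Its groups did not overlap, and the log2 fold change was 0.97 (standard error 0.09, adjusted p = 3.37e-04). Ifi47 had 150 and 352 CPM against 171 and 443 CPM, lower in Lrig1+ within each set, and was just called (-0.26, adjusted p = 0.0496). Igtp, also known as Irgm3, measured 162 and 286 CPM against 157 and 284 CPM, and its log2 ratios were 0.05 and 0.01. Irgm1, which keeps the other IRG proteins off the membranes of the host cell, measured 87.9 and 152 CPM against 92.0 and 171 CPM (-0.07 and -0.17). Neither of these regulatory IRG genes was called.

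**Figure D2:**
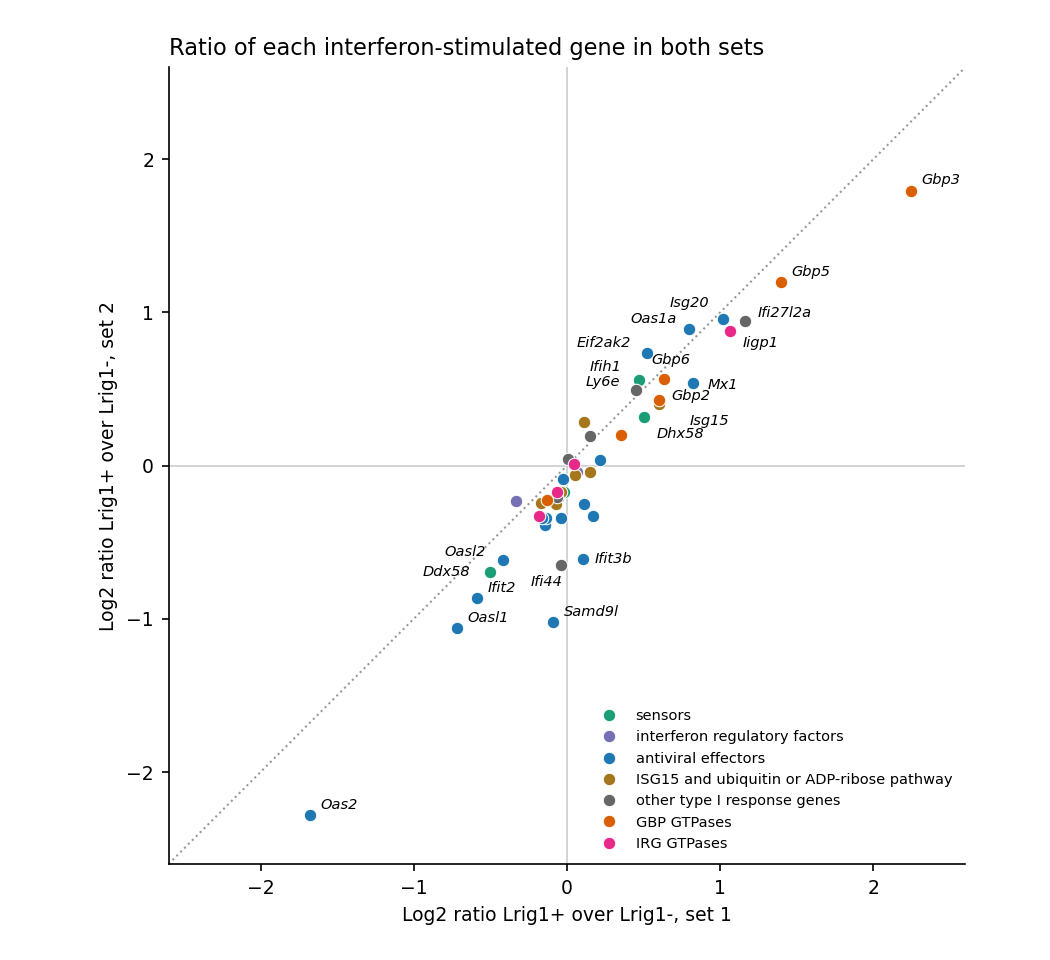
Log2 ratio of Lrig1+ over Lrig1- CPM (prior count of 2) for each of the 48 genes in set 1 (horizontal axis) and set 2 (vertical axis), coloured by role, with a dotted line where both are equal. Gbp3 lies at 2.24 and 1.80 and Oas2 at -1.68 and -2.28 at the ends of the line, while Samd9l lies off it at -0.09 and -1.02.

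Other GBP and IRG genes outside the 48 were read to place these results. All 12 of them were tested, and the fit with the table as a term called 5 higher and 3 lower, against 14.5% and 12.8% of all genes. Gbp2b, the gene once named Gbp1, had 9.17 and 7.45 CPM in Lrig1+ and 0.480 and 0.389 CPM in Lrig1- libraries, a log2 fold change of 4.25 (standard error 0.23, adjusted p = 3.44e-05). Gm4951, an IRG gene on the same chromosome as Iigp1, had 1.81 and 1.64 CPM against 0.251 and 0.370 CPM (2.47, adjusted p = 0.00580). Gbp10, a close relative of Gbp6, had 56.1 and 42.2 CPM against 33.4 and 24.2 CPM (0.78, adjusted p = 6.28e-04). These 3 genes were named because they had the smallest p in the higher direction of this list, so their values are a description. They were higher in both sets without overlap, as were 14.3% of all genes tested.

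The lower genes of that list included the T cell specific GTPases. Tgtp1 measured 79.8 and 146 CPM in Lrig1+ and 113 and 265 CPM in Lrig1- libraries, and Tgtp2 96.2 and 169 CPM against 123 and 274 CPM. Both were lower within each set and were called (adjusted p = 0.00284 and 0.00722), although their reads are hard to tell apart. Gbp11 was low everywhere, with 4.79 and 1.29 CPM against 8.75 and 1.80 CPM (adjusted p = 0.0486).

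By chromosome, the 5 GBP genes of chromosome 3 (Gbp2b, Gbp3, Gbp5, Gbp2 and Gbp7) were all higher in Lrig1+ cells in both sets. Those on chromosome 5 were divided, with Gbp10 and Gbp6 higher, Gbp4, Gbp8 and Gbp11 lower in both sets and Gbp9 mixed. On chromosome 11, Gm12250, Gm12185 and Igtp were higher in both sets, Irgm1, Ifi47, Tgtp1 and Tgtp2 lower, and Irgm2 mixed.

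**Figure D3:**
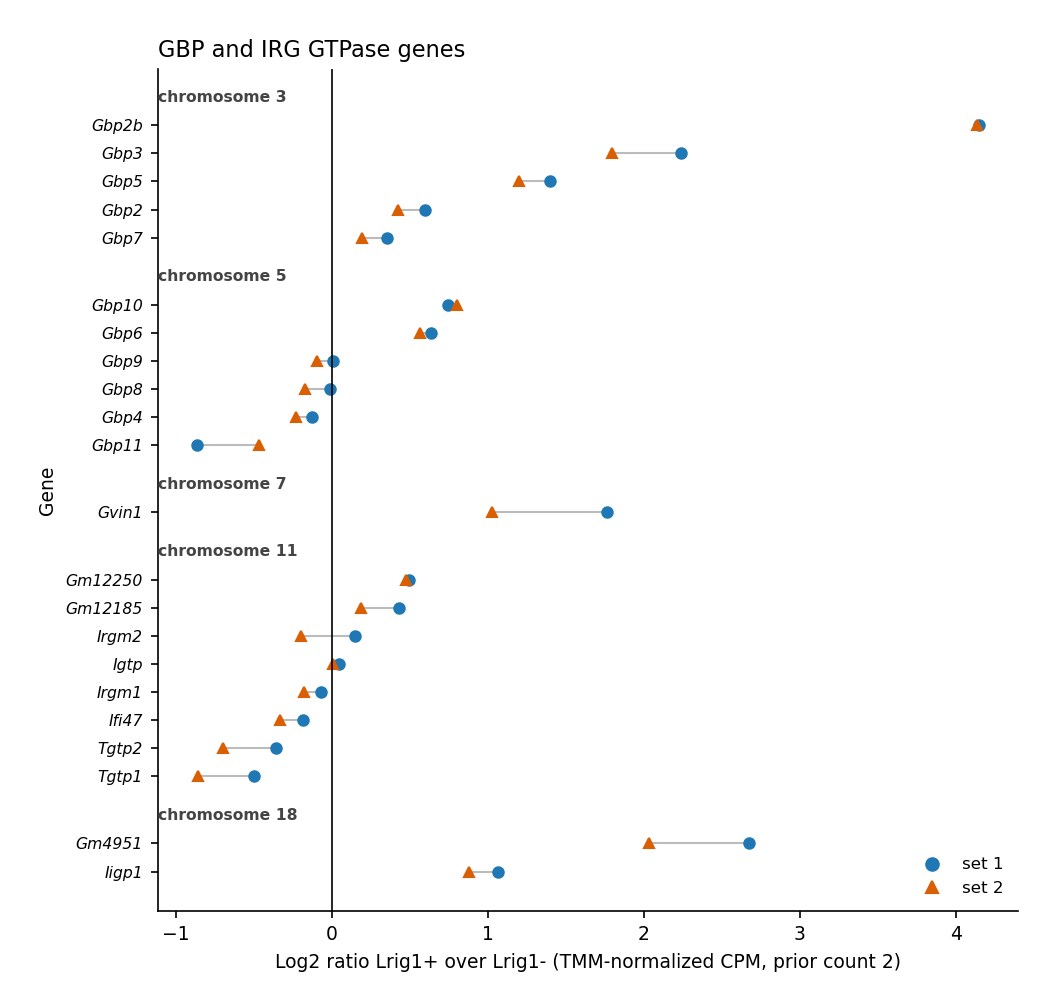
Log2 ratio of Lrig1+ over Lrig1- CPM of the 10 GTPases of the list and 12 related genes, ordered by chromosome and by the ratio in set 1, with circles for set 1 and triangles for set 2. All genes of chromosome 3 lie right of 0 in both sets, from Gbp7 (0.35 and 0.20) to Gbp2b (4.15 and 4.13), whereas chromosomes 5 and 11 hold genes on both sides.

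The RNA sensors went in different directions. Ddx58 (chr4:40203777-40239825), which encodes RIG-I, had 121 and 93.6 CPM in Lrig1+ and 172 and 151 CPM in Lrig1- libraries. Both Lrig1+ libraries lay below both Lrig1- libraries, and it was called lower (log2 fold change -0.60, standard error 0.08, adjusted p = 0.00154). Ifih1, which encodes the related sensor MDA5, had 45.4 and 47.5 CPM against 32.7 and 32.2 CPM. It was higher without overlap and was called (0.52, standard error 0.08, adjusted p = 0.00412). Dhx58, which encodes LGP2, a regulator of both, had 33.8 and 29.3 CPM against 23.9 and 23.6 CPM and was also higher without overlap (0.41, adjusted p = 0.0172). Zbp1, a sensor of Z-form nucleic acid, measured 112 and 102 CPM against 114 and 115 CPM, just below without overlap, and was not called (adjusted p = 0.386).

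Of the interferon regulatory factors, Irf7, the amplifier of type I interferon production, had 77.0 and 63.0 CPM in Lrig1+ and 97.0 and 74.1 CPM in Lrig1- libraries. It was lower within each set and called, although the groups overlapped across sets (-0.28, adjusted p = 0.0242). Irf9, the DNA-binding partner of Stat2, measured 138 and 155 CPM against 132 and 160 CPM, with ratios on either side of 0. Irf1, which interferon gamma induces through a GAS, measured 254 and 207 CPM against 265 and 239 CPM (adjusted p = 0.248).

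The antiviral effectors held the strongest falls and some of the rises. Of 18, 4 were called higher and 4 lower, against 14.5% and 12.8% of all genes tested. The Oas family, whose enzymes make the 2-5A that activates RNase L, was split. Oas1a had 24.4 and 48.7 CPM in Lrig1+ and 14.0 and 26.2 CPM in Lrig1- libraries. It was higher in Lrig1+ in both sets, with overlap across them (0.85, standard error 0.09, adjusted p = 6.08e-04). In GENCODE transcripts it shares 57.6% of its 50-base pieces with Oas1g, which measured 4.46 and 6.22 CPM against 2.32 and 3.89 CPM.

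Oas2 (chr5:120730333-120749886) had 26.2 and 1.04 CPM in Lrig1+ and 84.1 and 5.22 CPM in Lrig1- libraries. It was lower in Lrig1+ in both sets, and its level differed still more between the sets (-1.88, standard error 0.15, adjusted p = 2.79e-04). Between 44.0% and 88.3% of its counts fell on one predicted non-coding transcript of 5819 bases, so this row does not measure the coding messenger RNA alone. Oas3, which lies between Oas1a and Oas2 on chromosome 5, had 55.2 and 46.1 CPM against 47.7 and 45.0 CPM and was not called (adjusted p = 0.330).

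The 2 Oas-like genes were lower. Oasl1, known to hold back translation of Irf7, had 8.54 and 7.73 CPM in Lrig1+ and 14.1 and 16.2 CPM in Lrig1- libraries. The groups did not overlap (-0.89, standard error 0.13, adjusted p = 0.00277). Oasl2 had 11.4 and 13.7 CPM against 15.2 and 21.0 CPM and did not overlap either (-0.52, adjusted p = 0.0124).

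Ifit proteins bind foreign RNA. Ifit2 (chr19:34550550-34576534) had 53.6 and 52.9 CPM in Lrig1+ and 80.5 and 96.3 CPM in Lrig1- libraries. It was lower without overlap and was called (-0.73, standard error 0.09, adjusted p = 0.00117). Its neighbours on chromosome 19 differed less. Ifit1 measured 25.3 and 40.2 CPM against 27.9 and 52.6 CPM (adjusted p = 0.0752), and Ifit3 18.1 and 26.8 CPM against 19.9 and 33.9 CPM (adjusted p = 0.108). Ifit3b, which shares 44.5% of its 50-base pieces with Ifit3, measured 7.58 and 9.91 CPM against 7.06 and 15.1 CPM, so its ratio was above 0 in set 1 and below 0 in set 2.

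Isg20 (chr7:78913396-78920396), an exonuclease that degrades RNA, was one of the clear rises, with 27.3 and 40.4 CPM in Lrig1+ and 13.4 and 20.8 CPM in Lrig1- libraries. The groups did not overlap, and the level in Lrig1+ was 2.03 and 1.94 times that in Lrig1- cells (0.99, standard error 0.09, adjusted p = 3.35e-04). Eif2ak2, the kinase PKR that stops translation upon double-stranded RNA, had 59.5 and 32.2 CPM against 41.4 and 19.3 CPM. It was higher within each set and overlapped across sets (0.63, adjusted p = 0.00265).

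Mx1, a dynamin-like GTPase that is defective in C57BL/6 mice, had 12.1 and 1.55 CPM in Lrig1+ and 6.83 and 1.06 CPM in Lrig1- libraries. It was called higher (0.72, standard error 0.19, adjusted p = 0.0278), though the DESeq2 Wald test with the table as a term did not call it. Its only transcript in the tables is listed as non-coding. Mx2 measured 5.81 and 0.818 CPM against 5.16 and 1.04 CPM, with no shared direction.

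The remaining effectors were not called. Samd9l, a restriction factor, had 223 and 45.2 CPM in Lrig1+ and 237 and 91.9 CPM in Lrig1- libraries. It was near equal in set 1, and in set 2 Lrig1+ had 0.492 of the Lrig1- level. Bst2, or tetherin, measured 34.1 and 65.1 CPM against 34.7 and 69.2 CPM. Rsad2 (viperin) measured 8.52 and 12.0 CPM against 7.87 and 14.3 CPM, and its neighbour Cmpk2 12.5 and 20.0 CPM against 12.8 and 25.3 CPM. Rtp4, a restriction factor for flaviviruses, measured 23.0 and 42.6 CPM against 25.8 and 53.9 CPM.

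In the ISG15 pathway the modifier differed and its partners in the list did not pass. Isg15, a ubiquitin-like protein that is joined to other proteins, had 18.3 and 37.3 CPM in Lrig1+ and 12.1 and 28.2 CPM in Lrig1- libraries. It was higher within each set, with overlap across them (0.50, standard error 0.10, adjusted p = 0.00935). Usp18, which removes Isg15 and dampens Ifnar2 signaling, measured 29.3 and 36.3 CPM against 27.1 and 29.8 CPM (adjusted p = 0.153). Herc6, the main ligase for Isg15 in the mouse, measured 50.3 and 37.9 CPM against 53.0 and 45.0 CPM (adjusted p = 0.207).

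Enzymes of the same pathway outside the list were not alike. Ube2l6 was named for its small p among further type I response genes, and Uba7 after its values were seen. Both are given as a description. Ube2l6, the conjugating enzyme for Isg15, had 9.83 and 28.1 CPM in Lrig1+ and 2.46 and 6.46 CPM in Lrig1- libraries. The groups did not overlap (2.06, standard error 0.12, adjusted p = 5.54e-05). Uba7, the activating enzyme, measured 176 and 79.6 CPM against 181 and 77.5 CPM and was not called (adjusted p = 0.971).

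The ADP-ribosyltransferases and ubiquitin ligases of the list lay close to equality. Parp9 measured 89.8 and 98.3 CPM in Lrig1+ and 86.7 and 103 CPM in Lrig1- libraries, and Parp14 259 and 164 CPM against 234 and 170 CPM. Dtx3l, the ligase that works with Parp9, measured 180 and 164 CPM against 202 and 194 CPM. Its groups did not overlap, but it was not called (adjusted p = 0.0730), whereas DESeq2's Wald test with the same term called it lower (adjusted p = 0.0131). Trim30a measured 172 and 137 CPM against 176 and 154 CPM.

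The other type I response genes included the most abundant of the list. Per length, Ly6e led with 486 and 961 FPKM in Lrig1+ and 353 and 633 FPKM in Lrig1- libraries, followed in the mean over libraries by Ifi27l2a with 223 and 738 FPKM against 98.7 and 358 FPKM. At the low end were Ifi44 (0.699 to 1.21 FPKM), Mx2 (0.300 to 2.3 FPKM) and Mx1 (0.326 to 4.31 FPKM). Both leading genes were higher in Lrig1+ cells within each set, and both groups overlapped across sets.

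In CPM, Ifi27l2a (chr12:103433873-103443680), a small mitochondrial protein, had 109 and 380 CPM in Lrig1+ and 48.5 and 197 CPM in Lrig1- libraries (1.05, standard error 0.08, adjusted p = 1.80e-04). Ly6e, a lipid-anchored surface protein, had 1171 and 2177 CPM against 857 and 1548 CPM (0.47, standard error 0.10, adjusted p = 0.0131). These 2 genes weigh heavily in any sum. The summed CPM of the 37 type I response genes was 3391 and 4524 in Lrig1+ and 3111 and 3947 in Lrig1- libraries. Without these 2 genes, which were picked after their values were seen, it was 2111 and 1967 against 2205 and 2202, so that the sum in CPM turned from higher to lower. In FPKM the sum without them was 709 and 837 in Lrig1+ and 713 and 833 in Lrig1- libraries, so it lay near equality and stayed higher in set 2.

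Ly6a (Sca-1) measured 62.5 and 186 CPM in Lrig1+ and 65.3 and 214 CPM in Lrig1- libraries and was not called (adjusted p = 0.221). Ifi35 measured 49.7 and 75.1 CPM against 44.7 and 65.8 CPM, Xaf1 35.4 and 30.5 CPM against 35.3 and 29.6 CPM, and Ifi44 2.1 and 2.59 CPM against 2.15 and 4.09 CPM. None of them was called.

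Further type I response genes outside the 48 also went both ways. Of 52 tested, 11 were called higher and 13 lower (14.5% and 12.8% of all genes), with a median log2 fold change of -0.03. The 3 with the smallest p in each direction follow a rule on p, so their values are a description. Apol9b had 11.0 and 16.4 CPM in Lrig1+ and 1.36 and 1.96 CPM in Lrig1- libraries, and Cxcl10, a chemokine for Cxcr3, had 8.33 and 14.8 CPM against 1.09 and 2.15 CPM. Ube2l6 was the third. On the lower side Ifi208, of the DNA-binding Ifi200 family, had 53.3 and 35.0 CPM against 153 and 160 CPM. Phf11c had 7.71 and 1.85 CPM against 24.2 and 18.3 CPM, and Ifi206 had 136 and 149 CPM against 216 and 259 CPM. All of these lay outside the range of the other group in both sets.

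Genes of class I antigen processing, which interferon also induces, differed little. Of 13 tested 11 were higher in both sets, against 35.9% of all genes tested, with a median log2 fold change of 0.18. Of these genes 2 were called, Psme1 and Psmb8, both higher, where 14.5% of all genes were called higher. Psme1, of the proteasome activator, had 239 and 437 CPM in Lrig1+ and 190 and 358 CPM in Lrig1- libraries (0.31, adjusted p = 0.0221). Psmb8, of the immunoproteasome, had 251 and 535 CPM against 200 and 435 CPM (0.31, adjusted p = 0.0236). H2-K1 measured 3808 and 4549 CPM in Lrig1+ and 3219 and 3964 CPM in Lrig1- libraries and was not called (adjusted p = 0.213). Erap1, the only one lower in both sets, measured 140 and 201 CPM against 154 and 242 CPM.

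Upstream of these genes, the interferon receptors were not alike. Of 5 receptor genes tested 2 were called higher and 1 lower, against 14.5% and 12.8% of all genes tested. Ifngr2, the signaling chain of the interferon gamma receptor, had 38.3 and 33.4 CPM in Lrig1+ and 65.3 and 63.9 CPM in Lrig1- libraries. Both Lrig1+ libraries lay below both Lrig1- libraries (log2 fold change -0.85, standard error 0.08, adjusted p = 4.52e-04). Its partner Ifngr1 measured 136 and 175 CPM against 123 and 168 CPM and was not called (adjusted p = 0.346).

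Ifnar2, a chain of the type I receptor, had 85.3 and 103 CPM in Lrig1+ and 56.2 and 78.5 CPM in Lrig1- libraries and was higher without overlap (0.50, adjusted p = 0.00386). Ifnar1 measured 223 and 123 CPM against 211 and 122 CPM, near equality. Il10rb, shared by the receptors for interferon lambda and IL-10, had 64.6 and 90.8 CPM against 39.3 and 56.7 CPM and was higher without overlap (0.70, adjusted p = 5.60e-04). Ifnlr1, its lambda partner, was at 0 in set 1 and at most 0.185 CPM in set 2, and it was not tested.

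The kinases and STATs described here differed by less than 0.5 in log2 ratio in either set. Tyk2, the kinase of Ifnar1, had 187 and 87.1 CPM in Lrig1+ and 146 and 73.1 CPM in Lrig1- libraries (0.31, adjusted p = 0.0182), and Jak1 had 897 and 847 CPM against 1095 and 1142 CPM (-0.36, adjusted p = 0.0333). Stat2 measured 101 and 44.2 CPM against 95.7 and 46.7 CPM. Stat3 and Jak2 were not called either.

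Among the negative regulators, Socs1, which blocks the Jak kinases, had 44.4 and 41.2 CPM in Lrig1+ and 29.2 and 22.8 CPM in Lrig1- libraries and was higher without overlap (0.73, standard error 0.10, adjusted p = 0.00169). Pias1, an inhibitor of STAT signaling, had 74.0 and 68.2 CPM against 93.5 and 93.6 CPM and was lower without overlap (-0.40, adjusted p = 0.00669). Ptpn2, Ptpn6 and Socs3 were lower in both sets and were not called (adjusted p from 0.0515 to 0.228).

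Of 6 further genes of the IRF group, 2 were called, both higher, where 14.5% of all genes tested were called higher. Irf4, which T cell receptor signals induce and effector Treg cells need, had 97.4 and 82.0 CPM in Lrig1+ and 19.9 and 25.9 CPM in Lrig1- libraries. The groups were far apart (1.97, standard error 0.16, adjusted p = 8.60e-04). Irf5 had 19.0 and 30.4 CPM against 10.4 and 22.2 CPM (0.65, adjusted p = 0.00789). Irf8 measured 43.3 and 56.9 CPM against 25.5 and 61.8 CPM, higher in set 1 and lower in set 2. Irf2, Irf3 and Irf2bp2 lay near equality and were not called.

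Adaptors and other sensors of nucleic acid gave 1 gene higher and 2 lower of 10 tested, against 14.5% and 12.8% of all genes. Tmem173, which encodes STING, had 210 and 348 CPM in Lrig1+ and 141 and 229 CPM in Lrig1- libraries, higher within each set (0.59, standard error 0.07, adjusted p = 0.00125). Cgas, the enzyme that makes its ligand, had 6.77 and 5.61 CPM against 9.86 and 8.20 CPM and was lower without overlap (-0.55, adjusted p = 0.0254). Tlr9, a receptor for DNA used by B cells and plasmacytoid dendritic cells, had 2.90 and 4.75 CPM against 6.95 and 13.4 CPM and was lower without overlap (-1.39, adjusted p = 8.02e-04). Mavs, Tbk1, Ikbke, Myd88, Ticam1, Tlr3 and Tlr7 were not called.

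Interferon genes themselves were close to silent apart from Ifng. Of 20 genes for type I and type III interferons 17, Ifnb1 among them, had 0 counts in all 4 libraries, and no library had more than 5 counts of the others (Ifna12, Ifnab and Ifnz). A count of 0 allows up to 3 counts, or 0.050 to 0.0669 CPM of a library's unscaled total, which covers counting error only. Ifng had 8.33 and 12.5 CPM in Lrig1+ and 6.70 and 4.80 CPM in Lrig1- libraries. It was higher without overlap, mostly in set 2, and was not called (0.85, standard error 0.26, adjusted p = 0.0655).

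**Figure D4:**
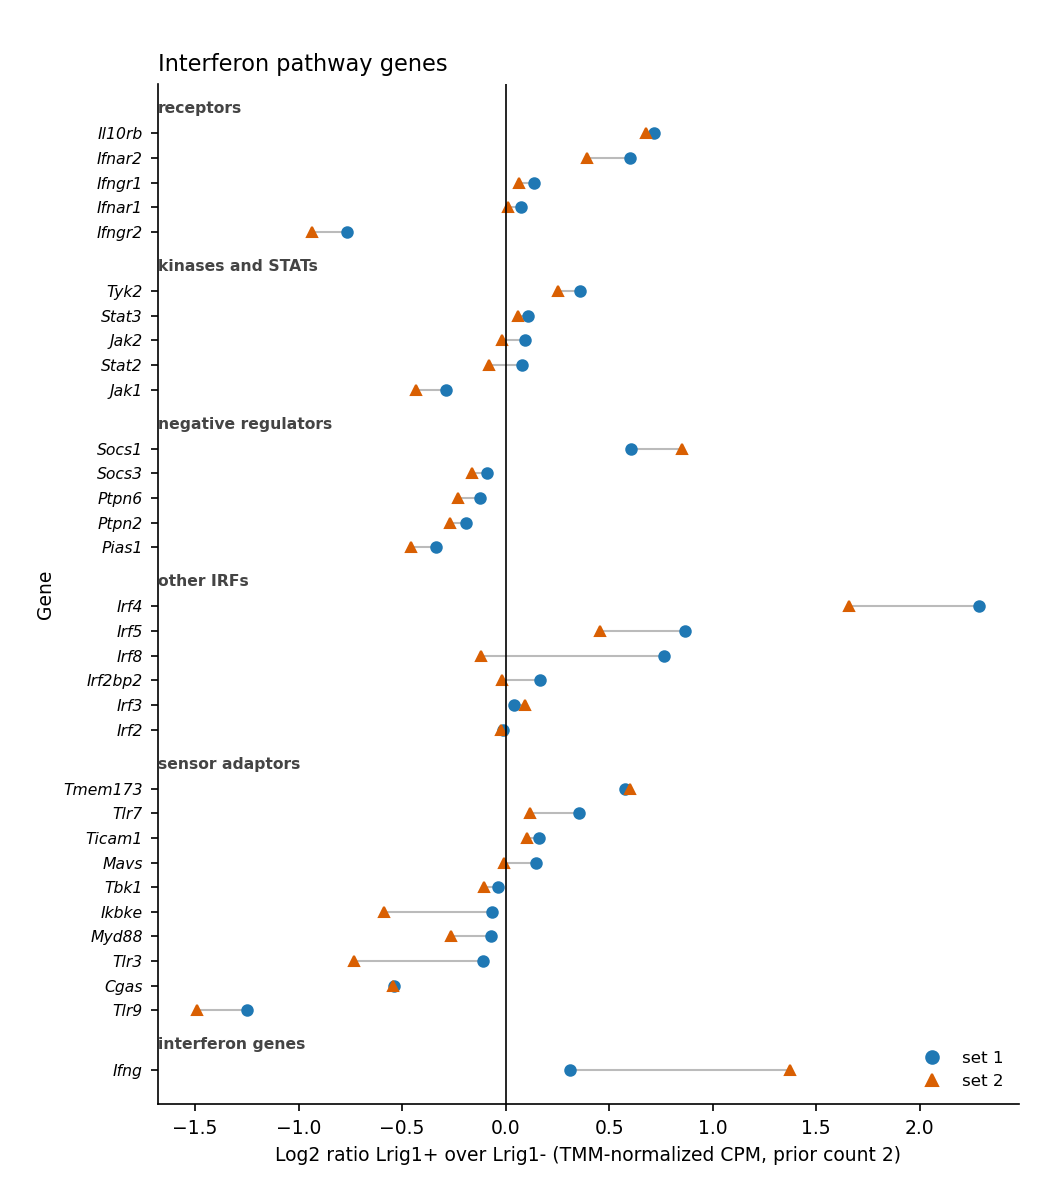
Log2 ratio of Lrig1+ over Lrig1- CPM of 32 interferon pathway genes tested, grouped by role, with circles for set 1 and triangles for set 2. Irf4 (2.29 and 1.66) lies furthest to the right and Tlr9 (-1.25 and -1.49) furthest to the left, Ifngr2 lies apart from the other receptors, and the points of Irf8 lie on opposite sides of 0.

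Markers of other cell types differed between the groups, though not every list kept one direction in both sets. Several of the genes above are also used by those cells. Of all genes tested, 35.9% were higher in both sets and 41.3% lower in both. In bulk RNA, fewer cells of a type and less RNA per cell cannot be told apart. Of 12 plasmacytoid dendritic cell genes, which include Bst2 and Irf8, 10 were lower in Lrig1+ in both sets and 1 was higher, with a summed level of 224 and 263 CPM against 231 and 388 CPM. Their defining marker Siglech had 3.77 and 2.54 CPM in Lrig1+ and 12.6 and 27.0 CPM in Lrig1- libraries. Of 8 conventional dendritic cell genes 7 were lower in both sets, with 10.9 and 11.5 CPM in sum against 48.6 and 37.0 CPM.

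Macrophage and monocyte genes leaned the other way within sets, with 7 of 12 higher in both sets and 1 lower. Their sum was 53.0 and 271 CPM in Lrig1+ against 40.8 and 201 CPM in Lrig1- libraries. Across sets, both Lrig1+ libraries lay above both Lrig1- libraries for 0 of the 12 and below both for 1. Of all genes tested, 14.3% lay above and 11.8% below. Within the list of 12, C1qa had 3.81 and 33.8 CPM against 0.564 and 8.79 CPM, while the list's median log2 fold change was 0.46. Its log2 ratios ran from -1.21 to 2.68 in set 1 and from -1.70 to 1.94 in set 2. The 10 B cell genes summed to 94.8 and 384 CPM against 74.5 and 752 CPM, and NK cell genes (7 of 8 lower in both sets) to 41.9 and 87.0 CPM against 64.8 and 171 CPM. Neutrophil genes summed to 6.06 and 35.3 CPM against 6.37 and 84.4 CPM and CD8 T cell genes to 23.8 and 71.0 CPM against 26.8 and 111 CPM. Of all these markers, Ly6g was at 0 in both libraries of set 1 and Elane in 1 of them. The T cell identity genes summed to 6056 and 9239 CPM against 5804 and 9186 CPM. The part of these cells, and of the Treg RNA described above, in the differences of the interferon-stimulated genes was not tested.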

How the data were processed

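RNA-seq was performed on sorted splenic CD4+ T cells (total RNA, a stranded mRNA kit). Per the labels, the submitters' processing notes name Trimmomatic 0.38, HISAT2 2.1.0, Bowtie2 2.3.4.1, StringTie 2.1.3b and GRCm38 (mm10). The authors deposited an estimated count and an FPKM value per transcript. The tables' coordinates matched RefSeq GRCm38.p6 for 96.4% of 45679 genes found there. Counts of 129299 transcripts were summed per gene. The 6 value columns of another table could not be tied to the labels and were not used.

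In R 4.3.3, edgeR 4.0.16 (filterByExpr, TMM, robust quasi-likelihood test, Benjamini-Hochberg adjustment over all genes tested, threshold 0.05) gave the main results, and a prior count of 2 was added for the log2 ratio of each set. The table as a term was an alternative, shown because libraries of a table deviated together (correlation 0.88, only 2 pairs). Other alternatives were DESeq2 1.42.0, edgeR's exact test, other filters, limma 3.58.1 on FPKM, and leaving out each library. The fits were tested on simulated counts that were built with a shared profile per table and a fixed spread. Such counts cannot show whether the table term suits these libraries. Python 3.11.15 read the files. Shared sequence is the share of a gene's 50-base pieces in GENCODE M21 transcripts that occur in other genes.

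The members and lists were chosen with earlier results of these data known. Named were every member, the pathway genes (some are not reported here), Lrig1 and Foxp3, and 3 genes per direction by smallest p in each of 3 related lists. Genes named beyond these were chosen after their values were seen.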

Additional observations from a re-analysis of the deposited data

How the results depend on the processing

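Without a term for the table, edgeR's quasi-likelihood test called 0 members under DESeq2's size factors, no filter, at least 10 counts in every library and each fit that left out 1 library, and limma on log2(FPKM + 1) and log2(FPKM + 0.1) also called 0. DESeq2's Wald test called 1 member higher (260 genes higher and 50 lower in all), as did the exact test of edgeR (179 and 14 in all). The replicate block, which is the table of a library, gave 15 members higher and 7 lower of 2342 and 2065 genes, 14 and 9 of 1848 and 1969 with DESeq2's Wald test, and 15 and 11 of 2220 and 2418 with DESeq2's size factors. The columns carry no replicate number, so the block rests on the table alone, and a block with a library left out leaves no residual degree of freedom. With single libraries left out, genes called ranged from 0 to 58 higher and from 0 to 1 lower. The median log2 fold change then ranged from -0.0623 to 0.21 for the members, from -0.14 to 0.15 for the type I response genes and from 0.42 to 0.76 for the GTPases. The median of the members was positive without the Lrig1+ library of set 1 (0.0952), the Lrig1- library of set 1 (0.0222) or the Lrig1- library of set 2 (0.21), and that of the type I response genes was positive without the first and the last of these (0.0319 and 0.15). The GTPase median of 0.76 came from the fit without the Lrig1- library of set 1. Such fits set 1 library against 2 from different sets, and 30 members changed sign in at least 1 of them. Their ranges over the 4 fits are given in the order of roles used above, first Irf1 (-0.26 to 0.00616), Irf9 (-0.0847 to 0.16), Ifit1 (-0.68 to 0.23), Ifit3 (-0.58 to 0.18), Ifit3b (-0.74 to 0.31), Mx1 (-1.34 to 2.72), Mx2 (-1.91 to 1.70) and Oas2 (-5.42 to 1.41), then Rsad2 (-0.43 to 0.39), Rtp4 (-0.80 to 0.35), Cmpk2 (-0.62 to 0.35), Samd9l (-1.85 to 0.57), Bst2 (-0.62 to 0.52), Isg15 (-0.14 to 1.21), Herc6 (-0.35 to 0.0359) and Trim30a (-0.25 to 0.0530). These were followed by Parp9 (-0.0801 to 0.12), Parp14 (-0.27 to 0.36), Ifi27l2a (-0.19 to 2.34), Ifi35 (-0.16 to 0.48), Ifi44 (-0.76 to 0.13), Xaf1 (-0.0947 to 0.20), Ly6a (-1.17 to 0.93) and Ly6e (-0.0438 to 0.97), and last by Gbp2 (-0.0448 to 1.13), Gbp4 (-1.03 to 0.70), Gbp7 (-0.60 to 1.15), Igtp (-0.45 to 0.52), Irgm1 (-0.59 to 0.39) and Ifi47 (-1.04 to 0.56).

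Outside those fits the fitted log2 fold change of 4 members changed sign, all with values near 0. Irf9 was -0.0116 under DESeq2's size factors and under its Wald test, and -0.0104 under either with the block. Xaf1 was -0.00175 with DESeq2's size factors and -0.00172 with its Wald test. Parp9 was 0.00620 with at least 10 counts, 0.0381 with limma on log2(FPKM + 1) and 0.0394 with log2(FPKM + 0.1). Mx2 was -0.0427 with the block, -0.0873 with the block and DESeq2's Wald test, -0.0694 with the block and DESeq2's size factors, and -0.0144 with limma on log2(FPKM + 0.1). For the members' ratios within a set, 0 of 96 moved by more than the spread between sets with a prior count of 0.5, and 19 did with FPKM + 0.1. With FPKM + 0.1 the ratio changed sign for Xaf1 in set 1 (-0.00467) and, in set 2, for Irf9 (0.0986), Bst2 (0.00847), Parp9 (0.0197) and Parp14 (0.0692), so the counts of members higher in both sets, lower in both and mixed depend on the scale for these 5 genes. The median count of the members was 2212 or more in each library, and each group had 2 libraries.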
